A study of Ovis aries with 36 samples.

Results

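Gluteus medius (GM) was compared with the other 8 muscles sampled from the same lambs. Its 4 samples were those whose label gives this muscle, out of 36 samples in all, and the comparison was a contrast of GM with the mean of the remaining 32 samples, each of the 8 muscles given equal weight. The animals were 4 unrelated Poll Dorset cross-bred lambs aged 14 months, and every lamb gave a sample of each muscle. Besides GM these were the thigh muscles Semimembranosus (SM), Semitendinosus (ST), Adductor (AD), Gluteobiceps (GB) and Rectus femoris (RF), the loin muscles Psoas major (PM) and Longissimus lumborum (LL), and, from the shoulder, Supraspinatus (SS). No group received a treatment, and each group is a single muscle belly sampled in 4 animals.

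GM lies over the hip, where it extends and abducts the hind limb during locomotion. Skeletal muscles differ in their share of slow fibres, which use slow isoforms of the troponins, tropomyosin and myosin light chains and depend on oxidative metabolism, and of fast fibres, which contract and relax faster. Muscles also keep a record of their place in the body, since transcription factors that patterned the embryo can remain expressed in the adult. In whole muscle RNA, fewer cells of a type and less RNA per cell cannot be told apart.

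RNA-Seq counts were available for 31136 assembled loci, and 12461 of them had enough counts to be tested. The GM libraries held 4018634 to 6350738 counts, against 3699148 to 6427422 in the other muscles, and the lowest GM total was that of animal 1. Of the GM counts, 65.7% to 72.6% fell on 4 loci without an Ensembl gene. GM did not differ from the other muscles in total counts, in the share of those 4 loci or in the number of loci detected (exact permutation tests, two-sided, p = 0.732, 0.250 and 0.704, and adjusted over 6 such measures p = 0.825, 0.50 and 0.825). The TMM normalization factors were 0.874 to 1.31 in GM and averaged 1.14, against 0.997 elsewhere (exact permutation test, p = 0.0913, adjusted p = 0.50). Levels are in CPM, which corrects each library for its size and its TMM factor. A floor of 3 counts, below which a level was not told from 0, came to 0.366 to 0.857 CPM in GM and covers counting error only. Each log2FC comes from the fit, and the values marked as within animals are the mean ± SE of the GM difference in log2 CPM over the 4 animals. A prior count of 2 in the second measure draws differences between low levels towards 0, so the 2 measures part where a muscle was near 0. The skeletal muscle identity of the samples was read from the slow contractile genes below, because no other marker could be paired with a locus.

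Against the mean of the other 8 muscles, more loci were called higher in GM than lower. Differentially expressed genes (DEG) had a log2FC beyond 1 in either direction and an FDR no higher than 0.01. Of 12461 loci, 20 (0.161%) were DEG higher in GM and 0 (0%) were lower in edgeR's quasi-likelihood test, with 1692 loci at an unadjusted p under 0.05. DESeq2 called 13 higher and 0 lower. With only the FDR threshold, at 0.05, 135 loci (1.08%) were higher and 8 (0.0642%) were lower, 143 (1.15%) in all. The 20 loci were higher in GM within each of the 4 animals, which their selection on the same samples favours. Over all 12461 tested loci, 2614 had the same sign in 4 animals, in either direction. RIMS2 was the only locus among the 20 that could be given a gene symbol, from the position the study prints, and 15 of the 20 carried no Ensembl gene. Without animal 3 only 3 DEG were left, at XLOC_021977, chr3:138839190-138842956 and chr1:53704763-53791805, and the first pair were DEG whichever animal was left out. Without the block for animal, 3 DEG were called.

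**Figure D1:**
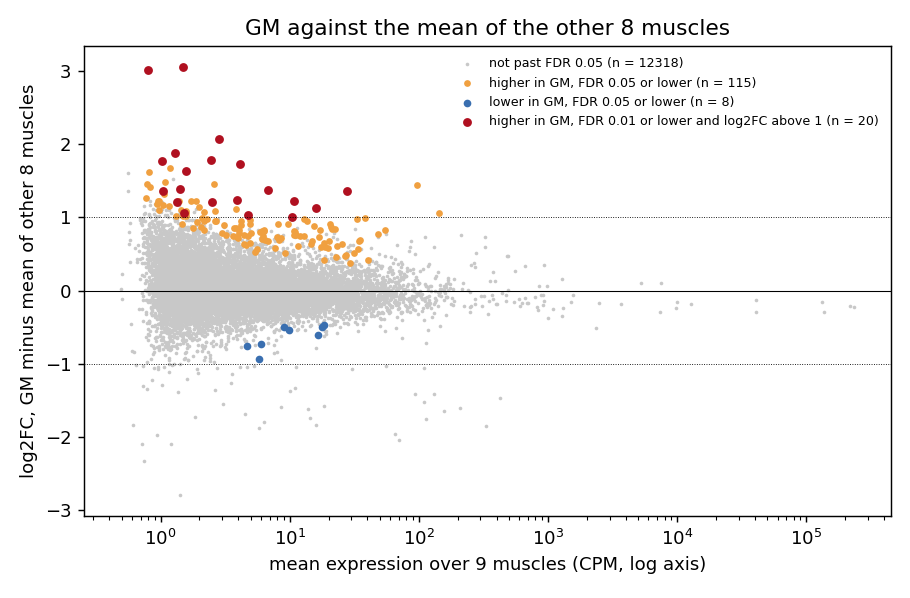
Each point is 1 of the 12461 tested loci, with its mean CPM over the 9 muscles on a log axis against its log2FC in GM relative to the mean of the other 8 muscles. The 20 DEG all lie above a log2FC of 1, and the 8 loci that were lower at an FDR of 0.05 lie between -0.94 and -0.47.

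The largest differences were at a pair of neighbouring loci on chromosome 12 that lack an Ensembl gene. The locus with the smallest p (XLOC_005907, chr12:69113902-69118743, Oar_v3.1) had 2.29, 1.2, 22.3 and 2.32 CPM in the GM samples of animals 1 to 4. The other muscles averaged between 0.22 CPM in RF and 1.78 CPM in PM. Its log2FC was 3.05 (within animals 2.17 ± 0.64), with an adjusted p of 6.1e-06 in edgeR's quasi-likelihood test. The GM sample of animal 3 was far above the rest, and the PM sample of the same animal, at 5.39 CPM, was the next highest of all 36. The second locus (chr12:69105397-69107794) had 2.86, 0.75, 10.1 and 0.49 CPM in GM, and its log2FC was 3.02 (within animals 1.86 ± 0.62). Animal 3 was again highest. Without animal 3 both loci had too few counts for the filter. When the filter was lifted, an alternative chosen after seeing the data, their log2FC were 2.21 and 2.19, with adjusted p of 8.79e-05 and 0.0226 (edgeR's quasi-likelihood test). These values rest on few reads, since GM of animals 1, 2 and 4 had raw counts of 8, 8 and 19 at the first locus and 10, 5 and 4 at the second.

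A cluster of loci without an Ensembl gene on chromosome 3 (chr3:138819344-138849249) held several that were higher in GM than in the mean of the other muscles. Of 10 tested loci within it and 100 kb of it, 10 had a positive log2FC, 8 passed an FDR of 0.05 and 5 were DEG. The region was chosen for its DEG, and over all tested loci without an Ensembl gene 76.0% were positive and 3.06% were higher at that FDR. In the locus with the smallest p among them (XLOC_021977, chr3:138823794-138828966), GM had 2.29, 12.1, 15.3 and 3.05 CPM. LL had 5.38, 15.9, 14.6 and 4.78 CPM. In RF and SS it reached at most 1.34 CPM. Thus GM and LL overlapped, whereas each GM sample was above every RF and SS sample. The log2FC against the mean was 1.74 (within animals 1.46 ± 0.16), with an adjusted p of 1.1e-05. Against RF the log2FC was 4.00 (within animals 3.19 ± 0.29) and against SS 4.31 (within animals 3.27 ± 0.59), and against LL it was -0.44 (within animals -0.51 ± 0.25), with adjusted p of 2.15e-07, 7.62e-08 and 0.513 (edgeR's quasi-likelihood test).

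The neighbouring locus at chr3:138839190-138842956 is the transcript unit that the study lists beside COL2A1, which encodes the chain of type II collagen. It had 2.00, 8.10, 10.2 and 2.32 CPM in GM and 4.13, 12.2, 10.6 and 2.23 CPM in LL. In RF it had 0, 0.585, 0.167 and 0 CPM, and in SS 0, 0, 0.355 and 0.193 CPM. Its log2FC against the mean of the 8 muscles was 2.07 (within animals 1.65 ± 0.09; adjusted p = 1.14e-05, edgeR's quasi-likelihood test). In all 5 DEG of the cluster the LL mean was above the GM mean, and animals 2 and 3 were higher than animals 1 and 4 in GM as in LL, AD and PM.

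**Figure D2:**
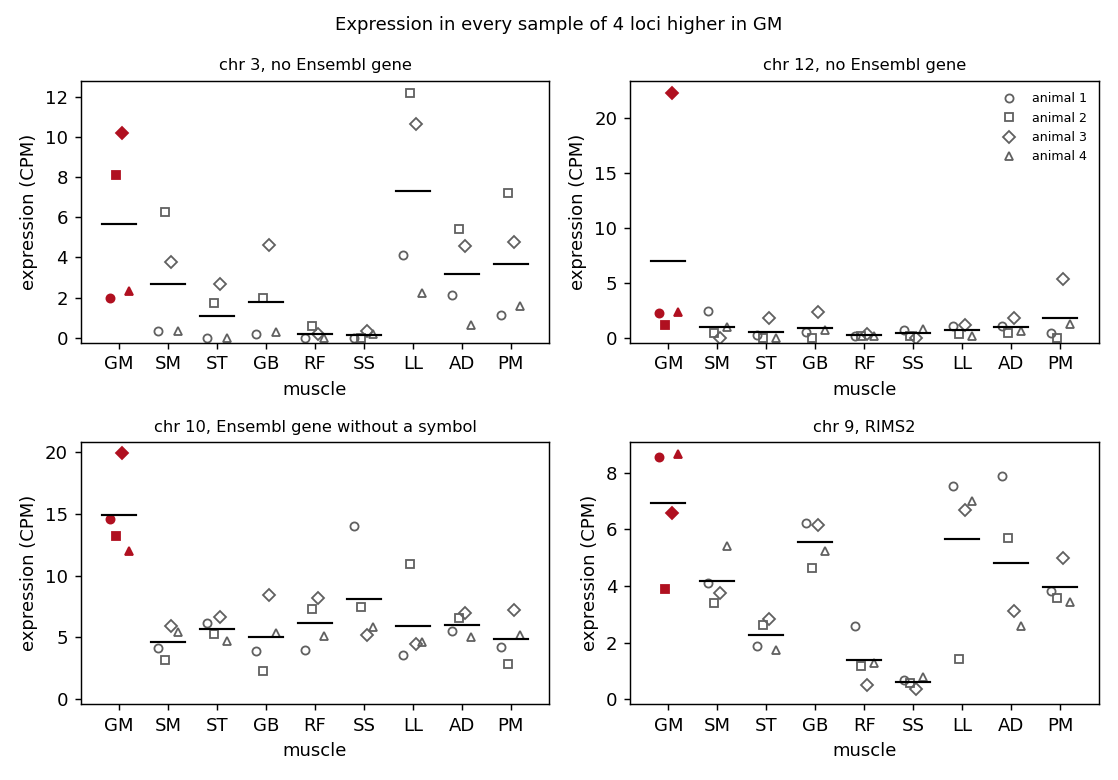
Expression in CPM of 4 DEG in each of the 36 samples, with a marker shape for each animal, GM filled, and a bar at the mean of each muscle. The chromosome 3 locus is high in GM and LL and near 0 in RF and SS, the chromosome 12 locus is highest in the GM sample of animal 3, and the chromosome 10 locus is highest in GM within every animal.

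Of the 5 DEG with an Ensembl gene, the smallest p was on chromosome 10 (chr10:86017503-86038058), an Ensembl gene for which the files give no symbol. GM had 14.6, 13.2, 19.9 and 11.95 CPM. The other muscles had means from 4.63 CPM (SM) to 8.10 CPM (SS). The SS sample of animal 1, at 14.0 CPM, and the LL sample of animal 2, at 10.9 CPM, were the highest outside GM. GM was the highest of the 9 muscles in each animal. The log2FC was 1.37 (within animals 1.37 ± 0.09) with an adjusted p of 0.000113, and it was positive against each of the 8 muscles, from 0.88 (within animals 0.93 ± 0.37) against SS to 1.67 (within animals 1.63 ± 0.19) against SM. Without animal 3, its log2FC was 1.27 and the adjusted p 0.017 (edgeR's quasi-likelihood test).

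RIMS2 (chr9:72976729-73464816), a scaffold protein of the zone where synaptic vesicles are released, had 8.57, 3.90, 6.59 and 8.66 CPM in GM. It had 0.689, 0.583, 0.355 and 0.774 CPM in SS and 2.57, 1.17, 0.501 and 1.28 CPM in RF. Every GM sample was above every SS and RF sample. In GB the values were 6.22, 4.65, 6.16 and 5.22 CPM, within the range of GM. The log2FC against the mean was 1.24 (within animals 1.13 ± 0.19; adjusted p = 0.00151), against SS 3.46 (within animals 2.89 ± 0.24; adjusted p = 1.61e-06) and against RF 2.34 (within animals 2.15 ± 0.37; adjusted p = 0.000169, edgeR's quasi-likelihood test). With ST and SS left out of the mean, it was 0.82 with an adjusted p of 0.0733, and without animal 4 the adjusted p was 0.102.

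The other 3 DEG with an Ensembl gene have no symbol in the files. One at chr1:119195464-119207276 had 42.9, 25.04, 64.6 and 82.6 CPM in GM and a log2FC of 1.36 (within animals 1.41 ± 0.28). AD followed with a mean of 40.6 CPM and SM with 35.9 CPM, and their ranges overlapped with that of GM. The gene ENSOARG00000000747 at chr24:2415218-2418730 had 6.57, 5.998, 9.70 and 2.56 CPM in GM and a log2FC of 1.78 (within animals 1.67 ± 0.28). GM was the highest muscle in animals 1 to 3 and was next to PM in animal 4. Another Ensembl gene listed with the same coordinates, ENSOARG00000000865, had a log2FC of -0.21 (adjusted p = 0.773, edgeR's quasi-likelihood test). The gene at chr13:65110361-65202196 had 26.6, 12.7, 22.9 and 11.2 CPM in GM and a log2FC of 1.01 (within animals 1.04 ± 0.04), the smallest SE among the 20 loci. Its level also differed between animals, with animal 1 above animals 2 and 4 in GM, SS, LL, AD and PM.

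The remaining 8 DEG carry no Ensembl gene and had log2FC from 1.04 to 1.39. A pair of them share the coordinates chr1:53704763-53791805, since loci that Cufflinks assembled in the same span are listed with the same start and end, and their log2FC were 1.23 (within animals 1.199 ± 0.23) and 1.12 (within animals 1.14 ± 0.19). Another pair lies in a run at chr1:3313121-3336612, where 10 of 10 loci tested within 100 kb had a positive log2FC and 4 passed an FDR of 0.05. This run was also chosen for its DEG, and 76.0% of all tested loci without an Ensembl gene were positive. At chr7:84592323-84595026 GM had 2.86, 3.15, 2.24 and 2.44 CPM, and SS, with a mean of 2.98 CPM, was above it. Over the 20 DEG, GM had the highest mean of the 9 muscles in 14, LL was above it in 5 and SS in 1. The 20 were selected for being higher in GM, and GM had the highest mean in 1429 of all 12461 tested loci.

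**Figure D3:**
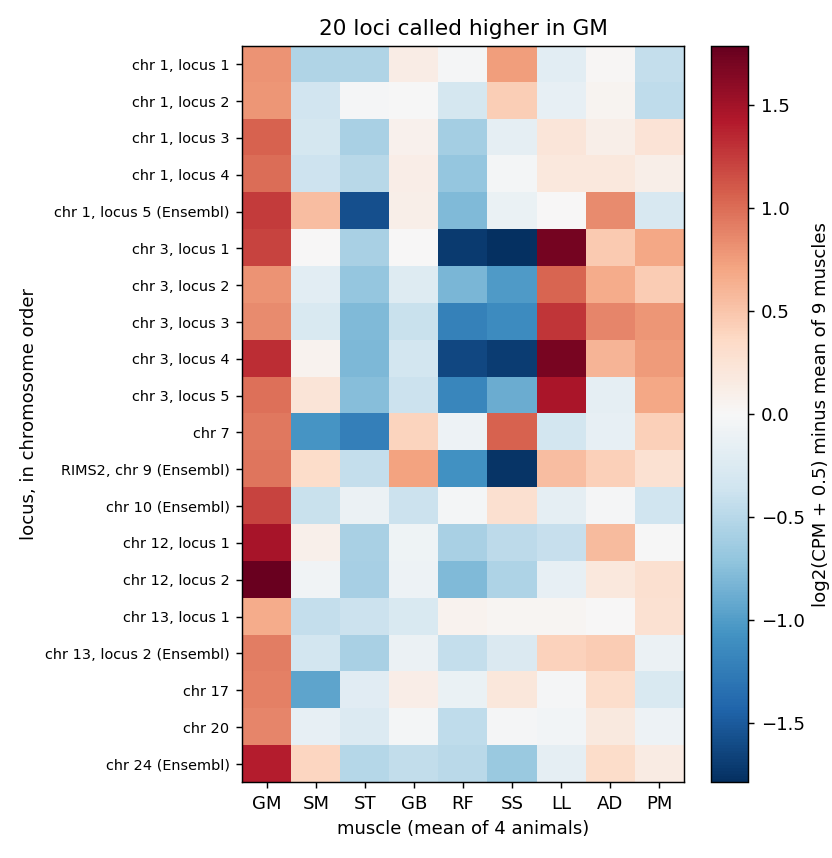
The 20 DEG in chromosome order, with the mean log2(CPM + 0.5) of each muscle minus the mean of the 9 muscles as colour, and loci with an Ensembl gene marked. GM is above the mean of the muscles in each row, LL is the highest muscle in the 5 chromosome 3 loci, and SS is the highest in the chromosome 7 locus.

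Loci without an Ensembl gene made up 25.4% of the tested loci but 75% of the DEG and 71.9% of the 135 loci higher at an FDR of 0.05. The median log2FC over all 3168 such loci was 0.26 and 76.0% were positive, whereas it was -0.01 over the 9293 loci with an Ensembl gene, of which 47.3% were positive. Within animals 1 to 4, the median difference of GM from the other muscles was 0.03, 0.13, 0.36 and 0.35 larger in the class without an Ensembl gene, a difference that did not pass an exact permutation test (two-sided, p = 0.102). This mean of 0.22 ± 0.16 (SD, n = 4) compares with 0.20 ± 0.14 in GB, 0.16 ± 0.12 in SS, 0.16 ± 0.23 in LL, -0.27 ± 0.21 in ST and -0.39 ± 0.33 in SM. Their share of the counts outside the 4 most counted loci was 10.2% to 12.7% in GM and averaged 11.7%, against 11.6% elsewhere (exact permutation test, p = 0.825).

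When normalization and fit were restricted to the 3168 loci without an Ensembl gene, an alternative chosen after seeing the data, 19 of them were higher and 2 lower at an FDR of 0.05, against 97 and 1 in the fit to all loci. The median log2FC of the class was then 0.029. Of the 15 DEG among them, 15 kept a positive log2FC, 11 remained past an FDR of 0.05 and 6 remained DEG. These 6 were the chromosome 12 pair, with log2FC of 2.77 and 2.76, and 4 loci of the chromosome 3 cluster, with log2FC between 1.40 and 1.87.

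At an FDR of 0.05, the 135 loci higher in GM fell on 107 distinct spans, and 8 spans held 3 or more of them. The largest group was at chr12:18028459-18720283, the span in which the study places a transcript unit beside ESRRG, which encodes an oestrogen-related receptor of oxidative muscle. There 8 of 51 tested loci passed, with log2FC from 0.82 to 0.99, 48 had a positive log2FC and the median of the 51 was 0.60. Among all tested loci without an Ensembl gene that share coordinates, 83.9% were positive and 4.61% were higher at that FDR. In the locus with the log2FC of 0.99, GM averaged 57.8 CPM, AD 53.7 CPM, LL 48.8 CPM, PM 24.5 CPM and ST 8.51 CPM. In another of the 8, AD (12.2 CPM) was above GM (11.9 CPM), and ST had 1.76 CPM. All 8 lack an Ensembl gene, and the pair of Ensembl genes listed with that span had log2FC of 0.54 and 0.32 and did not pass. Similarly, 5 of 23 loci passed at chr13:33646362-33869647 and 4 of 11 at chr7:94065233-94172107, none of them with an Ensembl gene. Whether loci listed with the same span share reads was not tested.

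Few of the other loci past an FDR of 0.05 could be named. SIM2 (chr1:267018135-267070595), a transcription factor of the basic helix-loop-helix family, had 3.14, 1.95, 1.87 and 0.976 CPM in GM. It had 0, 0, 0 and 0.216 CPM in ST, and AD, with a mean of 4.03 CPM, and SM, with 3.35 CPM, were above GM. Its log2FC was 1.06 (within animals 0.68 ± 0.24; adjusted p = 0.0348), and with ST and SS left out of the mean it was 0.38 with an adjusted p of 0.585 (edgeR's quasi-likelihood test). A neighbouring locus without an Ensembl gene at chr1:266994223-267001200 had a log2FC of 1.46 (within animals 0.86 ± 0.32; adjusted p = 0.0132, edgeR's quasi-likelihood test). It was higher in GM in 3 of 4 animals. Its GM mean of 3.46 CPM was below those of AD (6.56 CPM), SM (4.63 CPM) and GB (3.48 CPM), and ST had 0 CPM. At chr14:14547940-14606419, which spans the end position that the study prints for MYLK3, 2 of 5 loci passed. The Ensembl gene there had 20.3, 27.3, 45.9 and 16.7 CPM in GM and a log2FC of 0.87 (within animals 0.83 ± 0.20; adjusted p = 0.0107, edgeR's quasi-likelihood test), and PM (40.2 CPM), GB (36.8 CPM) and SS (27.8 CPM) were above the GM mean of 27.5 CPM.

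Only 8 loci were lower in GM at an FDR of 0.05, and 7 of them have an Ensembl gene. The one with the smallest p, ENSOARG00000010693 (chr8:28163840-28408704), had 6.57, 13.3, 13.4 and 11.6 CPM in GM, and GM was the lowest of the 9 muscles in each animal. The other muscles averaged between 14.2 CPM in AD and 22.03 CPM in RF. Its log2FC was -0.61 (within animals -0.60 ± 0.10; adjusted p = 0.00402, edgeR's quasi-likelihood test). ENSOARG00000010839 (chr4:71151138-71266980) had 4.57, 2.70, 3.48 and 1.95 CPM in GM and averaged 8.99 CPM in ST, 7.80 CPM in RF and 3.84 CPM in AD, with a log2FC of -0.94 (within animals -0.85 ± 0.20). The other 6 had log2FC from -0.75 to -0.47, and without animal 4 none of the 8 passed, where the count of loci lower at an FDR of 0.05 was 0 and 1055 loci of either direction had an unadjusted p under 0.05.

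The GM means of contractile genes of slow fibres ranked 4th to 6th of the 9 muscles. Of 17 such genes on the list, 7 could be paired with a tested locus, and 0 were higher and 0 lower at an FDR of 0.05 (edgeR's quasi-likelihood test). Since 1.15% of all tested loci passed, a count of 0 among 7 says little. The Ensembl gene at chr14:14547940-14606419, which passed with a log2FC of 0.87, spans the end position that the study prints for MYLK3, also on the list. It is not among the 7 because the printed start lies outside that locus, and whether it is MYLK3 was not tested. TPM3 and MYL3 were under 0.05 without adjustment. The median log2FC of the 7 was 0.11, against 0.03 over all tested loci. The slow myosin light chain MYL3 had 64.3, 54.1, 65.2 and 32.2 CPM in GM, a log2FC of 0.46 (within animals 0.44 ± 0.33). It had 1.33, 1.09, 5.30 and 3.66 CPM in ST and 183, 193, 207 and 159 CPM in PM, and GM overlapped with neither. The slow troponins TNNT1, TNNC1 and TNNI1, which make thin filaments sensitive to calcium, had log2FC of 0.17 (within animals 0.18 ± 0.22), 0.06 (within animals 0.038 ± 0.30) and -0.05 (within animals -0.002 ± 0.24). Tropomyosin TPM3 averaged 98.6 CPM in GM, 14.9 CPM in ST and 218 CPM in PM, a log2FC of 0.50 (within animals 0.49 ± 0.22; adjusted p = 0.158, edgeR's quasi-likelihood test). A locus without an Ensembl gene at the same coordinates had a log2FC of 0.91 (within animals 0.78 ± 0.46; adjusted p = 0.0219, edgeR's quasi-likelihood test), higher in 3 of 4 animals. It averaged 28.2 CPM in GM, 46.8 CPM in PM, 29.4 CPM in GB and 4.07 CPM in ST. With 1 animal left out, its adjusted p ranged from 0.000354 to 0.388 in that test. MYOM3, a protein of the M-band, averaged 10.5 CPM in GM and was lower in 4 of 4 animals, with a log2FC of -0.42 (within animals -0.37 ± 0.17; adjusted p = 0.538, edgeR's quasi-likelihood test). MYOZ2, a Z-disc protein that binds calcineurin, had a log2FC of 0.11 (within animals 0.11 ± 0.25), and 2 loci at the position of MYH7B, a slow myosin heavy chain, had 0.85 (within animals 0.90 ± 0.19) and -0.04 (within animals -0.025 ± 0.06).

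Because the contrast averages the 8 muscles on the log scale, a muscle near 0 weighs heavily in it. MYL3 averaged 54.0 CPM in GM and 62.0 CPM over the other muscles although its log2FC is positive, and without ST and SS in the mean its log2FC was -0.09. Of 18 calcium handling genes on the list, 4 could be read, and 0 were higher and 0 lower at an FDR of 0.05, with 1 at an unadjusted p under 0.05 (KCNMA1, edgeR's quasi-likelihood test). The share past that FDR over all tested loci was 1.15%, so 0 of 4 says little. The calcium pump of slow fibres ATP2A2 had a log2FC of 0.11 (within animals 0.086 ± 0.25), the calcium store protein CASQ2 -0.04 (within animals -0.0088 ± 0.13), the calcium-activated potassium channel KCNMA1 -0.25 (within animals -0.26 ± 0.11) and the calcium buffer PVALB -0.14 (within animals -0.66 ± 0.26). PVALB averaged 0.516 CPM in GM, within the range of the floor, was lower within 4 of 4 animals and had 0 counts in all 4 AD libraries.

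**Figure D4:**
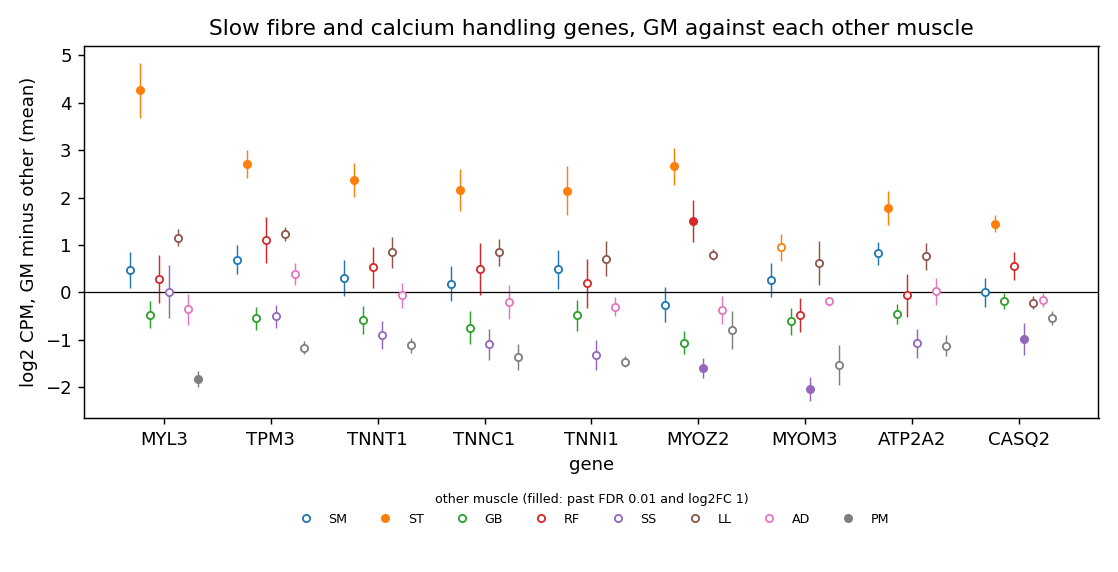
The difference in log2 CPM between GM and each of the other 8 muscles for slow fibre and calcium handling genes, as the mean of 4 animals with bars of 1 SE and filled symbols for DEG. The difference from ST lies far above 0 for MYL3, TPM3, the troponins, MYOZ2, ATP2A2 and CASQ2, whereas GM is below PM in each of the 9 genes.

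Of 70 transcription factors of regional identity, 4 could be read, and SIM2 was the only member past an FDR of 0.05, which 1.15% of all tested loci passed. HOXD8 (chr2:132873609-132877353), a homeobox factor of the body axis, had 9.15, 6.15, 9.45 and 9.39 CPM in GM and a log2FC of 0.70 (within animals 0.68 ± 0.19; adjusted p = 0.0515, edgeR's quasi-likelihood test). Its level was 0.230, 0.291, 0.355 and 1.55 CPM in SS and 0.791, 1.17, 3.01 and 0.729 CPM in RF, below every GM sample, and it averaged 14.1 CPM in LL. HOXC10 had 2.29, 1.80, 1.87 and 2.44 CPM in GM and 0 counts in all 4 SS libraries, where 3 counts would be 0.437 to 0.689 CPM. Its log2FC was 0.42 (within animals -0.0033 ± 0.13), higher in 2 of 4 animals, and its GM mean ranked 8th of the 9 muscles. EYA1, a cofactor that favours fast fibre genes, had a log2FC of -0.35 (within animals -0.23 ± 0.23).

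From the remaining lists, only a few members could be read, and 0 of them passed an FDR of 0.05 in edgeR's quasi-likelihood test, with CHI3L1 under 0.05 without adjustment. Among all tested loci 1.15% passed it. The myogenic list gave METTL21C, a methyltransferase of slow muscle, with 14.3, 6.15, 0.746 and 4.63 CPM in GM and a log2FC of 0.36 (within animals 0.19 ± 0.66), and SMYD2, another methyltransferase, with 0.08 (within animals 0.088 ± 0.06). In the extracellular matrix list the secreted glycoprotein CHI3L1, whose locus joins 2 Ensembl genes and is therefore uncertain, had 0.74 (within animals 0.78 ± 0.10; adjusted p = 0.0643, edgeR's quasi-likelihood test) and FREM2 had 0.07 (within animals 0.042 ± 0.09). PPP1R3D, which targets a phosphatase to glycogen, had 0.13 (within animals 0.12 ± 0.23). The 2 loci at the position of STXBP5L, a regulator of vesicle fusion, had -0.88 (within animals -0.65 ± 0.30) and -0.24 (within animals -0.31 ± 0.28). No member of the fast contractile, oxidative, fatty acid, vascular, stress or circadian lists could be paired with a single annotated locus. The same held for the markers of other cell types, and these lists were not counted. The 2 loci at the position of FABP3, of fatty acid transport, had log2FC of 0.44 (within animals 0.43 ± 0.22) and 0.11 (within animals 0.20 ± 0.26). The unit without an Ensembl gene that the study assigns to MYLK4 had -0.20 (within animals -0.52 ± 0.43). Units assigned to RORA had 0.39 (within animals 0.37 ± 0.21), 0.23 (within animals 0.21 ± 0.15) and 0.27 (within animals 0.25 ± 0.23). None of these passed an FDR of 0.05.

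Muscle by muscle, ST gave the most DEG and GB and AD gave none. All 8 comparisons share the GM samples. Against ST, 190 loci (1.52%) were higher and 85 (0.682%) lower in GM, 2.21% in all. Against SM, 58 (0.465%) were higher and 15 (0.12%) lower, 0.586% in all, and against SS 50 (0.401%) and 21 (0.169%), 0.57% in all. Against RF, 29 (0.233%) were higher and 18 (0.144%) lower, 0.377% in all. Against PM, 6 (0.0482%) were higher and 6 (0.0482%) lower, 0.0963% in all, and against LL 3 (0.0241%) and 5 (0.0401%), 0.0642% in all. Between GM and GB the number of DEG was 0 (0%), with 1054 loci at an unadjusted p under 0.05, and between GM and AD it was 0 with 1231 such loci. In edgeR's quasi-likelihood test no locus passed an FDR of 0.05 in those comparisons, and DESeq2 also called 0 DEG, whereas the likelihood ratio test called 4 against GB and 1 against AD.

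**Figure D5:**
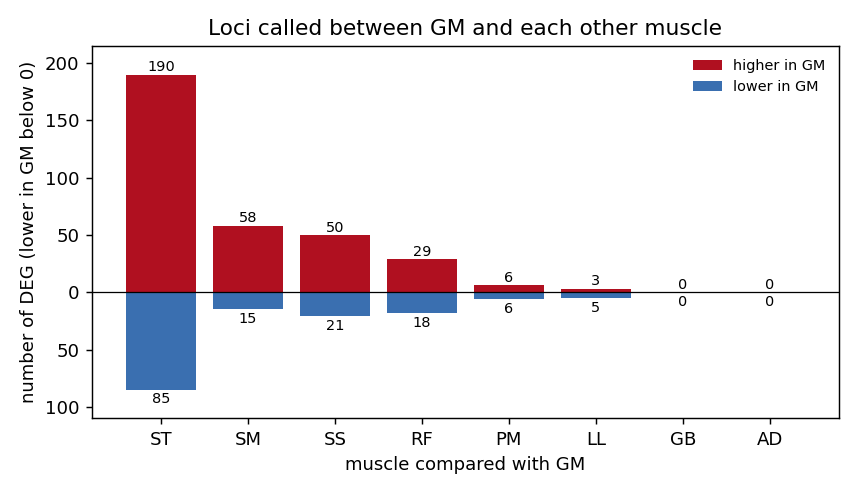
Number of DEG between GM and each other muscle, with loci higher in GM above 0 and loci lower in GM below 0. ST gave 190 and 85, and GB and AD gave 0 in both directions.

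Of the named genes among the DEG of each comparison, those with the smallest p are given. Against ST, MYL3 (log2FC 4.25, within animals 4.26 ± 0.58), TPM3 (2.75, within animals 2.70 ± 0.29) and MYOZ2 (2.72, within animals 2.66 ± 0.39) were higher in GM, and PVALB (-3.60, within animals -2.84 ± 0.23) was lower. The unit without an Ensembl gene that the study assigns to MYLK4 was also lower (-2.94, within animals -2.68 ± 0.10). Against RF, HOXD8 (2.55, within animals 2.47 ± 0.39), RIMS2 (2.34, within animals 2.15 ± 0.37) and CHI3L1 (1.71, within animals 1.88 ± 0.36) were higher, and PVALB (-3.80, within animals -3.06 ± 0.41) and EYA1 (-1.82, within animals -1.58 ± 0.16) were lower. Against SS, CHI3L1 (3.75, within animals 3.73 ± 0.26), HOXD8 (3.79, within animals 3.38 ± 0.37) and HOXC10 were higher, and METTL21C (-3.69, within animals -3.33 ± 1.30), MYOZ2 (-1.58, within animals -1.59 ± 0.21) and MYOM3 (-2.06, within animals -2.04 ± 0.25) were lower. MYOZ2 thus lay above ST and RF and below SS, with means of 2.73 CPM in ST, 5.96 CPM in RF, 18.6 CPM in GM and 54.1 CPM in SS. Against PM, MYL3 (-1.79, within animals -1.82 ± 0.17) was the only named gene among the DEG.

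Against SM, no DEG with an Ensembl gene could be given a symbol, and 50 of the 73 carry no Ensembl gene. These included units that the study assigns to RORA, with log2FC of 1.15 (within animals 1.16 ± 0.34) and 1.01 (within animals 0.95 ± 0.30). Also among the 50 was the transcript unit that the study lists beside DES (chr2:220339844-220346024). It had 17.2 ± 7.69 CPM in GM and 5.95 ± 1.87 CPM in SM (SD, n = 4). Against LL, the Ensembl gene at chr14:14547940-14606419 was higher in GM with a log2FC of 1.72 (within animals 1.75 ± 0.33). An Ensembl gene at chr8:36569062-36646572 had 0 counts in all 4 GM libraries and also in SM, ST, GB and RF, and 3.77, 3.58, 7.55 and 3.19 CPM in LL and 5.60, 5.93, 13.1 and 6.74 CPM in PM.

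Among the 20 DEG against the mean, 17 were also DEG against ST, 12 against RF, 9 against SS, 3 against SM and 1 against PM, and 0 against GB, LL and AD. The median log2FC of the 20 was 2.06 against ST, 1.91 against RF, 1.38 against SS and 1.32 against SM. It was 1.203 against GB, 0.94 against PM, 0.93 against AD and 0.91 against LL. The log2FC of the 20 were positive against SM, ST, GB, RF, AD and PM, with 1 exception against SS and 5 against LL. The 20 were selected by the contrast that includes these muscles.

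Ranking the muscles within each animal gave GM as the highest of 9 in all 4 animals for 9 loci (0.0722%) and as the lowest for 2 (0.0161%). The same ranking put 2 loci highest in GB, 9 in AD, 87 in SM, 53 in SS and 36 in ST. In the same contrast made for each muscle in turn, the numbers of DEG higher and lower were 7 and 0 in GB, 6 and 1 in AD, 13 and 7 in RF, 39 and 5 in PM, 50 and 18 in LL, 23 and 37 in SM, 131 and 57 in SS and 86 and 93 in ST. The share of calls at an FDR of 0.05 that were higher was 94.4% in GM, 91.3% in GB and 47.4% (AD) to 73.6% (RF) in the other muscles. Whether these counts and shares differ between muscles was not tested.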

How the data were processed

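Transcripts of 9 muscles from 4 lambs were sequenced. Reads were mapped by the authors with TopHat2 2.0.13 to the Oar_v3.1 genome. They assembled loci with Cufflinks 2.2.1 and the Ensembl annotation, and deposited whole-number htseq-count counts per locus without normalization. The strand setting is not given in the sources used here. Each file had 31530 entries, and 394 repeats of a locus were dropped. Starts are printed counted from 1. Sheep gene symbols came only from positions the study gives, which had to lie at least 90% within a single tested locus. More widely than planned, they could also lie within the only tested locus with an Ensembl gene at that position (5 genes, TPM3 and KCNMA1 among them). For MYH7B, STXBP5L and FABP3, the 2 tested loci at the position are given as such. Units without an Ensembl gene are described by the study's own assignment where it gives one. Other genes without such a position were not analysed here.

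Counts were filtered with filterByExpr by muscle and normalized by TMM. In edgeR 4.0.16 (R 4.3.3), the 36 samples were modelled with terms for muscle and animal. GM was tested against the mean of the other 8 muscles and against each one by the quasi-likelihood test, with p-values adjusted by Benjamini-Hochberg. Each SE is of the mean GM difference in log2 CPM (prior count 2) over 4 animals, printed beside the fitted log2FC. The named genes were, of the DEG with the same sign in all animals, those with a symbol and at most 2 without in each direction, then list members past an FDR of 0.05 and the first 4 of each list that were not, the genes the study names for ST and GM, and the 3 symbols of smallest p per direction in each pairwise comparison. Further positions were chosen after their values were seen. Members and lists were chosen with earlier results of these data known. Numbers pair samples because each animal gave every muscle. GM deviated from its muscle mean with the same animal's other samples (correlation 0.0278 to 0.424, mean 0.270, n = 32 pairs). With other animals the mean was -0.0883. Centring each muscle on its own 4 samples pulls that value below 0, so it is not separate evidence of pairing. GM libraries differed beyond sampling noise (chi-square per degree of freedom 5.82 to 15.4 in 6 pairs). The procedure was tested on simulated data. DESeq2 1.42.0 and other settings were alternatives.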

Additional observations from a re-analysis of the deposited data

Results flagged for a closer look

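Among 116 groups of 4 values examined for a sample far from the rest, 9 had one, and chance alone flags about 1 in 20 groups. The chromosome 12 locus with the largest log2FC had 22.3 CPM in the GM sample of animal 3 against 1.2 to 2.32 CPM in the other animals, and a log2 difference from the other muscles of 4.09 against 1.34 to 1.67. The GM library of animal 1 had 4018634 counts against 6025354 to 6350738 in the others. In animal 2, HOXD8 was at 6.15 CPM in GM against 9.15 to 9.45 CPM. TPM3 differed from the other muscles by -0.16 on the log2 scale in animal 4 and by 0.67 to 0.77 in the other animals. METTL21C differed by -1.77 in animal 3 and by 0.62 to 1.02 in the others. In GM of animal 1, a locus at the position of STXBP5L had 2.29 CPM against 0.854 to 1.05 CPM, and PPP1R3D had 11.1 CPM against 4.35 to 5.37 CPM. EYA1 had 2.07 CPM in GM of animal 4 against 0.995 to 1.14 CPM.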

How the results depend on the processing

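Without the replicate block, the pairing being by animal, DEG against the mean numbered 3 and loci past an FDR of 0.05 numbered 11 (20 and 143 with it), and DEG numbered 112 against ST, 0 against SM, 11 against SS, 6 against RF, 4 against LL and 1 against PM. With each animal left out in turn, DEG against the mean ranged from 3 (without animal 3) to 34 (without animal 1), loci past an FDR of 0.05 from 15 to 196, and DEG from 115 to 227 against ST, 0 to 43 against SM, 24 to 77 against SS, 15 to 41 against RF, 4 to 14 against LL and 1 to 16 against PM. The cause was not tested, though each such fit has fewer samples. Against the mean, DEG numbered 52 by the likelihood ratio test (287 at an FDR of 0.05), 13 by DESeq2, 110 without a filter (447 at an FDR of 0.05; 77 of the 110 higher and 33 lower), 6 with at least 10 counts in every sample, where 5151 loci remained and 15 of the 20 DEG were not tested, and 49 at an FDR of 0.05 with a log2FC above 1. The share of calls at an FDR of 0.05 that were higher was 94.4%, and 82.8% without a filter, 82.2% with at least 10 counts and 92.7% with RLE size factors. Leaving muscles out of the mean gave 8 DEG without ST and SS (67 at an FDR of 0.05), 11 without ST, 35 without LL and 36 without AD. By the likelihood ratio test, DEG numbered 415 against ST, 176 against SM, 88 against RF, 27 against LL, 24 against PM, 4 against GB and 1 against AD, and by DESeq2 21 against PM.

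Values of named loci turned in sign only for loci that were not called. Without ST and SS in the mean, log2FC were -0.042 for MYOZ2, -0.090 for MYL3, -0.42 for HOXC10, -0.033 for TNNT1, -0.12 for TNNC1, -0.10 for FREM2, -0.0092 for SMYD2, -0.063 for PPP1R3D and 0.93 for PVALB. With 1 animal left out, they ranged from -0.048 to 0.31 for MYOZ2, -0.043 to 0.29 for ATP2A2, -0.15 to 0.28 for TNNC1, -0.13 to 0.24 for PPP1R3D, -0.030 to 0.091 for FREM2, -0.55 to 0.19 for PVALB, -0.21 to 0.020 for CASQ2 and -0.19 to 0.16 for TNNI1. With RLE size factors and without the 4 most counted loci, all 55 named values kept their direction and their side of an FDR of 0.05, but 19 and 15 of the 20 DEG remained DEG. At this depth, levels under the 3-count floor could not be told from 0.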
